A study of Homo sapiens with 4 samples.

Results

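Chromosome 19 held 4 stretches in which peaks of N6-methyladenosine (m6A) immunoprecipitation recurred at regular distances, and they are described here repeat unit by repeat unit. The members were all listed peaks that overlap chromosome 19 at 36759307-36800430, 37759760-37797177, 48407563-48455753 or 50596711-50640500 in hg19, called the first to the fourth stretch below. They number 243 of the 4889 peaks of the series, 104 in pair 1 and 139 in pair 2, and all 243 were higher in the cells with slow RNA polymerase II (RNAPII), as were 3267 of all 4889 peaks (66.8%). The stretches were chosen by the density of such peaks in these same lists, so their peak numbers and folds are a description and no test was made on them. The series holds 4 libraries from HEK293, a human embryonic kidney line. The 2 slow libraries come from cells labelled as carrying a slow-elongating, α-amanitin mutant RNAPII, and the 2 WT libraries from control cells labelled wild type. Both groups received doxycycline (1 µg/ml), alone for 24 h and then for 42 h together with α-amanitin (2.5 µg/ml), which blocks sensitive RNAPII. The labels do not say that same-group libraries came from separate cultures or clones, so their spread may be technical.

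m6A is a methyl mark that the METTL3-METTL14 enzyme complex places on adenosines of RNA, largely while the RNA is being made, and reader proteins bind it to change splicing, export and decay. MeRIP-seq breaks RNA into fragments, pulls down those with m6A by an antibody and sequences them. Tandem repeats are head-to-tail copies of a DNA unit, and a transcript that runs through several copies carries the same sequence many times. The long arm of chromosome 19 is rich in clustered zinc finger genes and in repeats of this kind. It also holds arrays of SNAR genes, which encode short, highly structured RNAs made by RNA polymerase III. In the RefSeq order of genes in GRCh38.p14, 10 SNAR genes follow each other between SULT2A1 and BSPH1, and 10 more, from SNAR-A4 to SNAR-B1, form a second row. That row goes on with SNAR-B2 and SNAR-D after LOC105372436, and SNAR-E, SNAR-G2, SNAR-G1 and SNAR-F stand singly elsewhere on the chromosome. The peaks are in another build, so they were not placed on these genes, and whether any summit lies on a SNAR gene was not examined. The repeats were read from the spacing of summits alone, and no sequence is shown because a genome of the peaks' build was not used here.

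Each list compared 1 immunoprecipitated library with the same-numbered one of the other condition. The libraries kept 547402 to 1695246 reads after duplicate removal, and each slow library was shallower than its WT partner. Values are fragments over a peak's summit in the slow library, set beside the WT background there. That background is the highest of the WT coverage at the summit and its averages over 1000 and 10000 bp, so it is an upper value for WT. WT fragments are given before scaling to the slow depth, a factor of 0.412 in pair 1 and 0.482 in pair 2. The deposited fold is (slow fragments + 1) over (scaled background + 1), for 1 library against 1 library, with no error of its own. Reads that fit several copies of a repeat cannot be assigned to 1 copy, and how they were handled is not given in the sources used here. A value at 1 unit may therefore count reads of another, and the part of this in the results was not tested. No input library was analysed, so a higher methylation and a higher level of the RNA cannot be told apart.

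The 4 stretches fell into 2 kinds. The first and second were covered by broad, tall peaks over most of their length, while the third and the fourth carried isolated narrow peaks. In the first stretch (41.1 kb) 52 and 62 slow-higher peaks of pairs 1 and 2 covered 68.5% and 54.5% of the bases. In the second (37.4 kb) 32 and 57 peaks covered 80.5% and 63.6%. In the third (48.2 kb) 10 peaks in each pair covered 3.36% and 3.24%, and in the fourth (43.8 kb) 10 in each pair covered 3.56% and 3.60%. No WT-higher peak lay in any stretch, 0 of 915 and 0 of 707, which the choice of stretches dense in slow-higher peaks largely fixes. The other slow-higher peaks of chromosome 19 numbered 191 and 122.

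**Figure D1:**
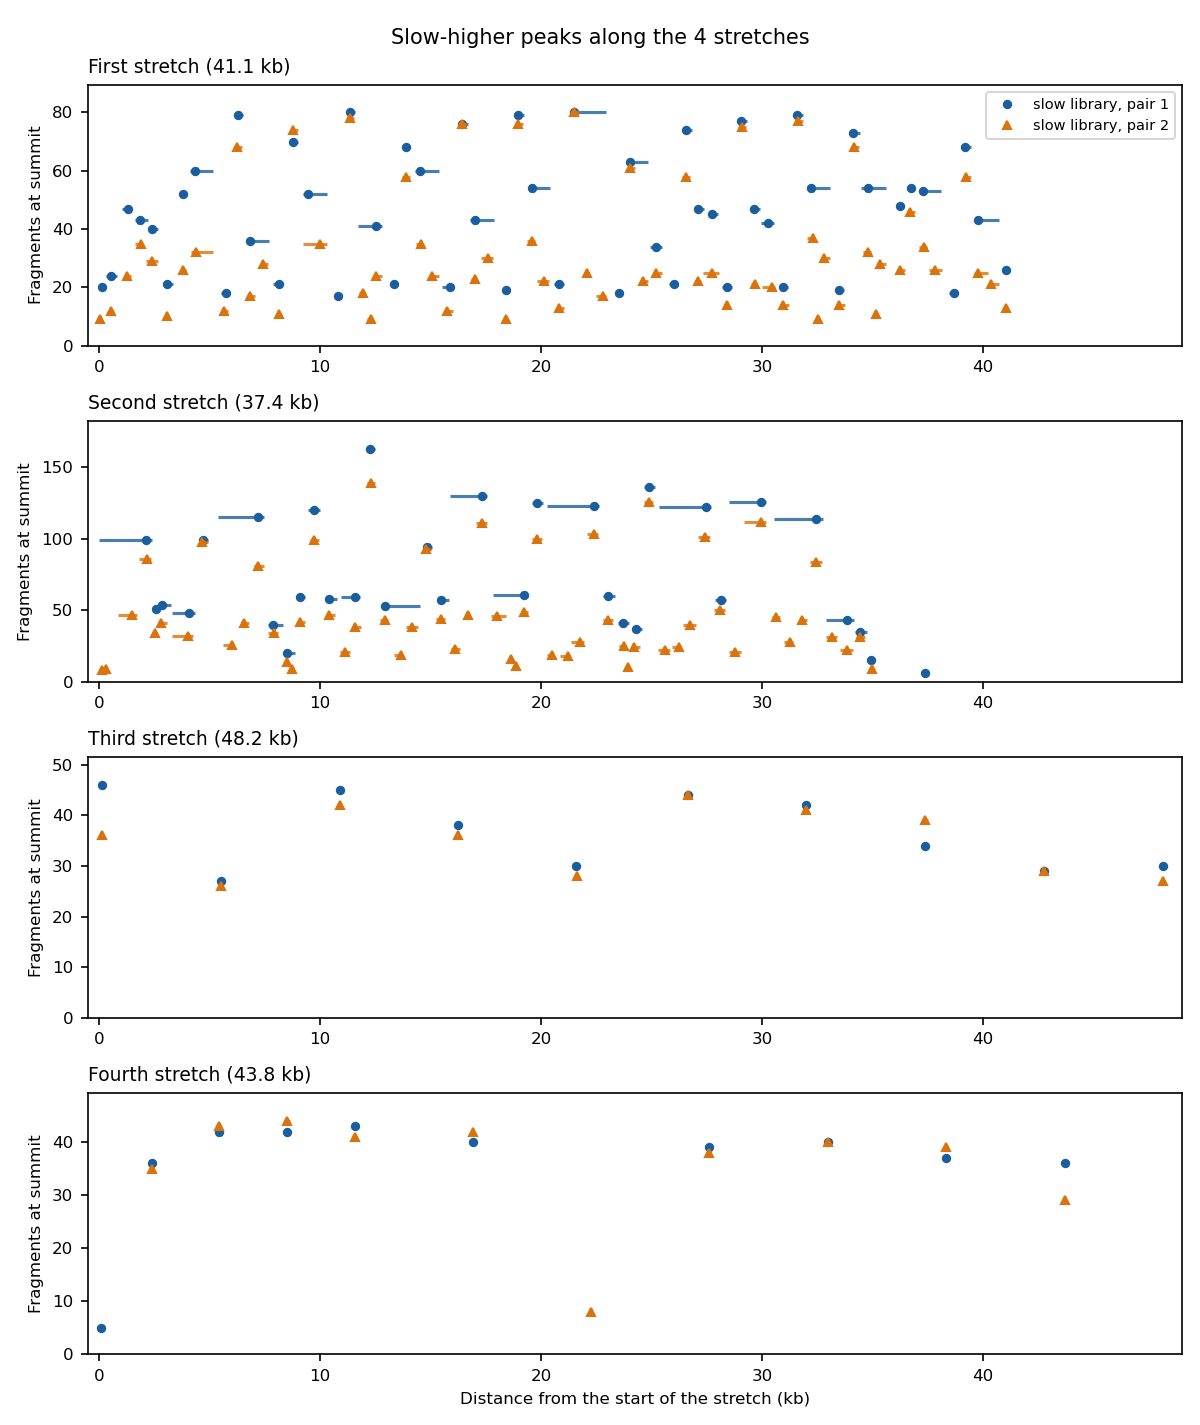
Slow-higher peaks along the 4 stretches, with distance from the start of the stretch (kb) on the horizontal axis and fragments over the summit in the slow library on the vertical axis, for pair 1 (circles) and pair 2 (triangles); horizontal lines span each peak. Summits up to 80 fragments recur in the first stretch and up to 163 in the second, while those of the third and the fourth stay at or below 46.

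Peak width set the 2 kinds apart from each other and the first kind from the rest of the chromosome. Median widths were 379 and 350.5 bp in the first stretch and 530 and 398 bp in the second (pairs 1 and 2). They were 152 and 149.5 bp in the third and 149 and 154 bp in the fourth, beside 159 and 164.5 bp over the other slow-higher peaks of chromosome 19. The caller extended reads to 116 and 124 bp, which were also the narrowest widths in the 2 slow-higher lists, so the peaks of the third and the fourth stretches were little wider than a fragment. Over the 2 pairs, the median width was 364.75 ± 20.2 bp (SD, n = 2) in the first stretch and 464 ± 93.3 bp in the second. It was 150.75 ± 1.77 bp in the third and 151.5 ± 3.54 bp in the fourth.

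The median summit held 46 and 25 slow fragments in the first stretch and 59 and 38 in the second (pairs 1 and 2). It held 36 in each pair in the third and 39.5 in each pair in the fourth. Over the other slow-higher peaks of chromosome 19 the median was 20 and 14, and over whole lists 14 and 12. Median folds were 19.9 and 14.4 in the first stretch, 22.7 and 17.2 in the second, 8.32 and 7.07 in the third, and 7.94 and 8.85 in the fourth, beside 6.58 and 6.83 over the lists. Of the 50 highest folds of each list, 35 in pair 1 and 41 in pair 2 were members, which made up 5.52% and 10.1% of the slow-higher lists. The stretches were chosen in these lists, so nothing is read from this. The slow value exceeded the WT background before scaling at every member, although the WT libraries were deeper. The lowest fold of a member was 5.47, and WT depth was 2.43 and 2.08 times slow depth in pairs 1 and 2. That every member exceeded it thus follows from the listed folds. The smallest ratios of slow to unscaled WT fragments were 6 and 4.5 in the first stretch, 6.63 and 8.8 in the second, 2.7 and 3.6 in the third, and 2.77 and 3.17 in the fourth.

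Summits of the first stretch lay most often 2528 bp apart. At that distance 53 of the 114 summits had another of the same list, within 30 bp. Pair 1 alone gave 2524 bp and pair 2 alone 2534 bp. From the tallest summit, steps of that distance were taken to either side, and the highest summit within 120 bp of each step was kept. This gave a series of 16 tall summits, each with a summit in both pairs, from 36760616 to 36798478. A tall summit need not be the highest of its unit. Neighbours in the series were 2445 to 2597 bp apart, with a mean of 2524 ± 38.0 bp (SD over 15 intervals). The step and the 120 bp window bound these intervals. Units were therefore set by these tall summits, each opening 300 bp before its own, a choice made after they had been seen. Counted in units of 1 length instead, all 15 whole units held a summit in both pairs, so no such unit was without a peak. Unit length and start came from these same summits, and the stretch ends from listed peaks. Full occupancy is therefore largely fixed, and a repeat copy without a peak could not be seen without the sequence.

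Grouped with a gap of over 200 bp between groups, summits of the first stretch fell into 4 positions within the unit. In pair 1 median heights were lower at each following position. In pair 2 the tall position was highest and the last lowest, with nearly equal medians of 25 and 24.5 fragments between them. The 24.5 includes low summits of 9, 9 and 11 fragments in units with another, higher summit at that position. Single units departed from these orders, and units 13 and 14 had 5 summits in pair 2. At the tall position the slow libraries held 47, 73.5 and 80 fragments in pair 1 (lowest, median and highest of 16 units) and 24, 68 and 80 in pair 2. The WT background there was 3, 6 and 9 fragments in pair 1 and 1.49, 3.5 and 6 in pair 2. Slow and WT values did not overlap, which the choice of the stretches fixes. The low tall summits were those of the first 2 units, at 47 and 52 fragments in pair 1 and 24 and 26 in pair 2. Without these units the tall summits held 54 to 80 and 46 to 80 fragments.

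The second position of the first stretch lay a median 594 and 600 bp after the tall summit (pairs 1 and 2). Its summits held a median of 52 slow fragments (36 to 60) in 13 units of pair 1 and 25 (17 to 37) in 15 units of pair 2, over a WT median of 3 and 2. The third lay 1205 and 1191 bp on and held 41 (34 to 45) in 5 units and 24.5 (9 to 35) in 15 units. The fourth lay 1937 and 1881 bp on and was the lowest, at 20 (17 to 48) in 16 units and 13 (9 to 26) in 11 units. Within the same unit the tall summit was higher than the second in 12 of 13 units of pair 1 and 13 of 15 of pair 2, and higher than the fourth in all 16 and all 11. Where a unit had both, the third exceeded the fourth in 5 of 5 units and 10 of 10. These orders rest on summits the caller separated, and a merged peak reports 1 summit only. The tall summits were picked by height, which favours the tall position in these counts, so nothing is read from its lead.

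A single unit of the first stretch stood apart at the fourth position. The summits at 36795549 in pair 1 and 36795554 in pair 2 held 48 and 26 slow fragments, over 8 and 2 WT fragments. They lay 2113 and 2118 bp after the tall summit. The fourth summits of the other units held 17 to 26 fragments in pair 1 and 9 to 14 in pair 2.

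In the first stretch the highest pileup of pair 1 was 80 fragments, reached from 36770534 to 36770907 and from 36780696 to 36782242. That of pair 2 was 80 as well, from 36780673 to 36781004, at the same unit as the latter. The highest folds were 40.6 from 36763426 to 36764468 in pair 1, with 60 slow fragments, and 28.2 in pair 2, reached from 36765433 to 36765781 and from 36793326 to 36793699, each with 68. The widest peaks measured 1547 bp in pair 1 (36780696 to 36782242) and 1070 bp in pair 2 (36768553 to 36769622). The highest fold of pair 1 was at a second position, where the scaled WT background was 0.502 fragments, so it depends on the pseudocount of 1.

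Summits of the second stretch recurred at nearly the same distance as in the first. The distance shared by most was 2529 bp, matched by 44 of 89 summits within 30 bp. The same stepping gave a series of 14 tall summits in both pairs, from 37761902 to 37794680. Neighbours were 2459 to 2575 bp apart, with a mean of 2521 ± 43.3 bp (SD over 13 intervals). The steps were 2528 and 2529 bp in the 2 stretches, each with a window of 120 bp. The likeness of the 2 means is therefore largely set by the method, and nothing is read from it. All 14 whole units of 1 length held a summit in both pairs, which the choice of units largely fixes here too. With the same 200 bp gap the summits again fell into 4 positions, with another order of median heights. A single summit of pair 1 with 6 fragments lay apart, 2450 bp after the last tall summit. In pair 2, units 3, 7 and 9 listed a further summit at 1564, 1547 and 1527 bp, counted here with the third position. The number of positions thus depends on the gap, and no other gap is reported.

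The tall summits of the second stretch held 94, 122 and 163 slow fragments in pair 1 (lowest, median and highest of the first 13 units) and 81, 100 and 139 in pair 2. The last unit was far lower, with 15 fragments in pair 1 and 9 in pair 2, near the end of the stretch. Over all 14 units the WT background at the tall position had a median of 8 fragments in pair 1 (1 to 19) and 6 in pair 2 (0.558 to 9). The second position lay 677.5 and 673 bp after the tall summit (pairs 1 and 2). It held a median of 55.5 slow fragments (40 to 60) in 7 units and 43 (19 to 50) in 12 units. The third, at 1337 and 1373 bp, held 41 (20 to 43) in only 3 units and 21 (9 to 28) in 12 units. The 21 includes low summits of 9, 11 and 10 fragments in units with another, higher summit at that position. The fourth, at 1924 and 1861 bp, held 53.5 (35 to 61) in 6 units and 39 (24 to 49) in 12 units.

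The tall summit of the second stretch exceeded the others of its unit in every unit where both were listed. The median was 2.07-fold and 2.40-fold over the second position in pairs 1 and 2. The tall summits were picked by height, which favours this order, so nothing is read from it. The fourth position was higher than the third in 10 of 11 units of pair 2, the reverse of the first stretch. Pair 1 had both summits in only 3 units of the second stretch, and the fourth was higher in 1 of them. The difference between the stretches was not tested. Units with all 4 positions numbered 2 of 14 in pair 1 and 10 of 14 in pair 2, beside 3 of 16 and 10 of 16 in the first stretch.

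In the second stretch the highest pileup lay at the same unit in both pairs, 163 fragments from 37771869 to 37772262 in pair 1 and 139 from 37771862 to 37772239 in pair 2. The highest fold of pair 2, which was also the highest of its whole list, was 63.4 from 37774437 to 37774786, with 93 slow fragments over 1 WT fragment. The same tall summit had 94 fragments over 6 in pair 1 and a fold of 27.4. The slow values thus nearly agreed and the folds differed by the WT background. The highest fold of pair 1 was 41.2, from 37779328 to 37779857, with 125 slow fragments over 5 WT fragments, and its tall summit had 100 over 5 in pair 2 and a fold of 29.6. The widest peaks were 2406 bp in pair 1 (37759764 to 37762169) and 983 bp in pair 2 (37788934 to 37789916).

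**Figure D2:**
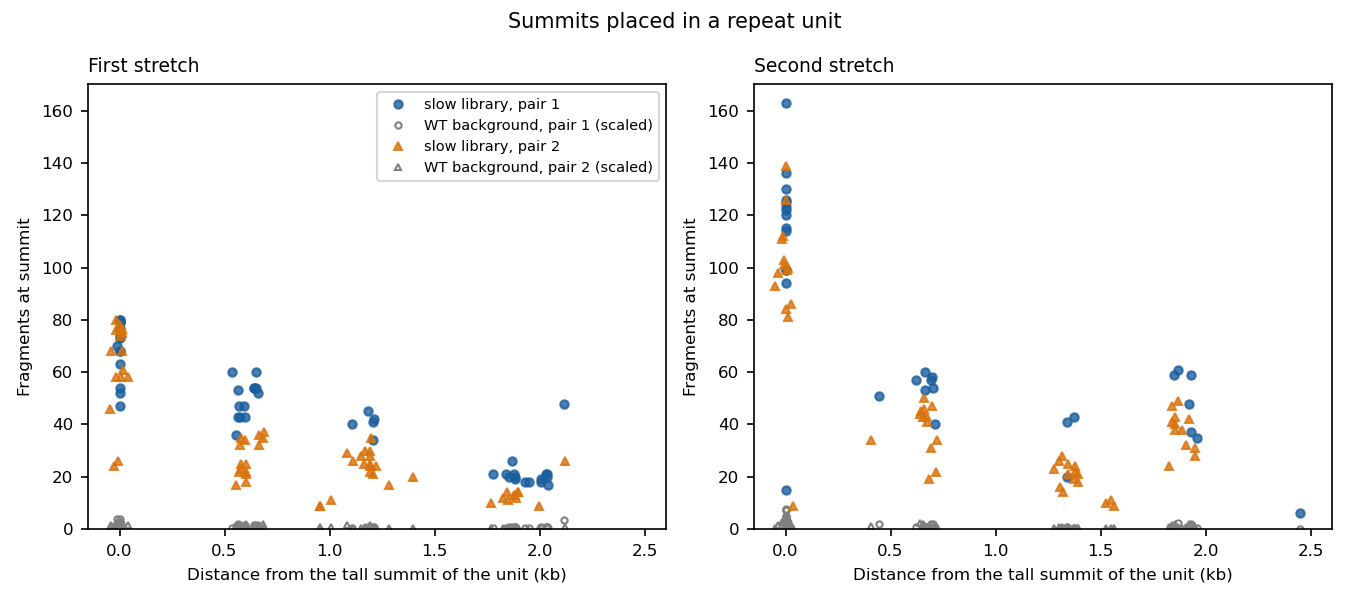
Summits of the first and second stretches by distance from the tall summit of their unit (kb, horizontal axis) and by fragments over the summit (vertical axis), with slow libraries filled and the scaled WT background in open grey symbols; circles are pair 1 and triangles pair 2. With groups over 200 bp apart, each stretch shows 4 groups of summits, and the second also a single summit of 6 fragments far right. In the second stretch the fourth group reaches 61 fragments, while in the first it stays at or below 48.

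The pairs differed in how finely they split the first and second stretches. In pair 1, 13 of 52 peaks of the first stretch and 12 of 32 of the second were wider than 800 bp, against 2 of 62 and 3 of 57 in pair 2. Of these wide peaks of pair 1, 11 in each stretch held at least 2 summits of pair 2, and a single one held up to 4. No peak of pair 2 held more than 1 summit of pair 1. The second stretch thus had 1.78 times as many peaks in pair 2 as in pair 1, with fewer bases covered.

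Overlap between the pairs was close to complete. In the first stretch 47 of 52 peaks of pair 1 (90.4%, exact 95% interval 79.0% to 96.8%) and 62 of 62 of pair 2 shared at least 1 bp with a slow-higher peak in the opposite pair. In the second stretch 31 of 32 (96.9%, interval 83.8% to 99.9%) and 57 of 57 did. The intervals treat peaks as independent draws, but neighbouring peaks of 1 pair are not replicates, so the shares are a description. The background is 44.0% of all slow-higher peaks of pair 1 and 63.1% of those of pair 2, and 40.8% and 63.9% of the other slow-higher peaks of chromosome 19. Dense and wide peaks overlap more easily, and the stretches were chosen in these lists, so nothing is read from the excess. Under 50% reciprocal overlap the shares were 69.2% and 58.1% in the first stretch and 62.5% and 35.1% in the second.

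Summits gave a stricter measure of agreement. Within 100 bp, 43 summits of the first stretch and 30 of the second had a mutual nearest partner in the other pair. Of these, 35 and 25 lay within 30 bp, and the median differences were 12 and 11 bp. Fragments at matched summits were ordered alike in both pairs, with Pearson's r of 0.94 and Spearman's rho of 0.95 in the first stretch (n = 43) and 0.98 and 0.96 in the second (n = 30). These values are across summits of the same 2 libraries, which share their units' sequence, and are given as a description.

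Pair 2 was lower than pair 1 at 40 of the 43 matched summits of the first stretch and at all 30 of the second. The median ratio of pair 2 to pair 1 was 0.667 and 0.807, beside a ratio of 0.784 between the depths of the 2 slow libraries. The ratio differed between positions of the unit in both stretches. In the first it was 0.947 (0.5 to 1.06) at 16 tall summits, 0.582 (0.447 to 0.814) at 12 summits of the second position, 0.655 (0.556 to 0.735) at 4 of the third and 0.542 (0.474 to 0.737) at 9 summits of the fourth position. In the second stretch it was 0.845 (0.6 to 0.990) at 14 tall summits and 0.791 (0.667 to 0.877) at 8 summits of the second position. It was 0.610 (0.512 to 0.7) at 3 summits of the third and 0.712 (0.644 to 0.886) at 5 of the fourth. The caller kept at most 1 read per position and strand, and its part in these ratios was not tested.

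**Figure D3:**
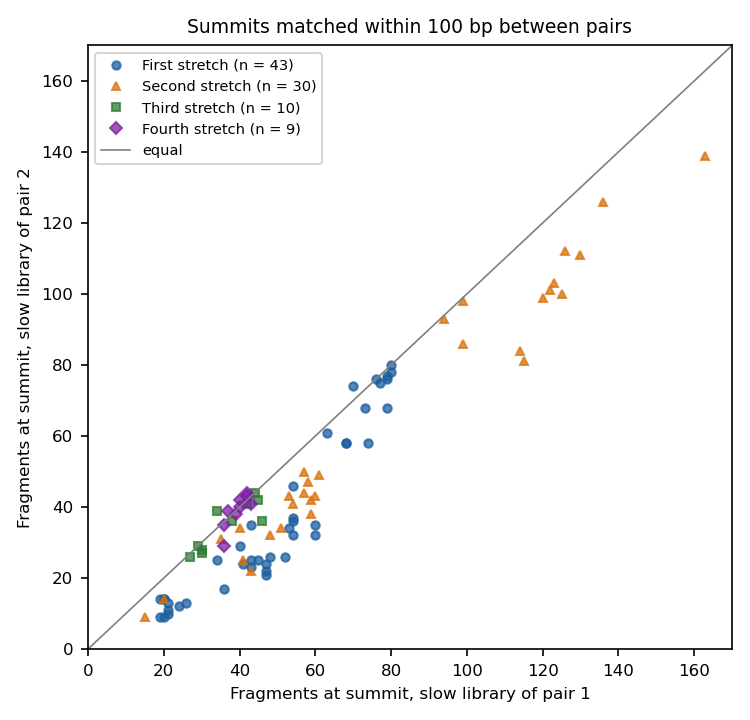
Fragments at summits matched within 100 bp between the pairs, with the slow library of pair 1 on the horizontal and that of pair 2 on the vertical axis, 1 symbol per matched summit and stretch; the line marks equal values. The 19 matched summits of the third and the fourth stretches lie near the line, and 70 of the 73 of the first and second lie below it.

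The third stretch was evenly spaced but for 1 interval. It had 10 sites, each with 1 peak in both pairs, and no site belonged to 1 pair alone. The summits of the pairs differed by 0 to 16 bp, with a median of 6 bp. Of the 9 intervals between neighbouring sites, 8 measured 5348 to 5394 bp (mean 5369 ± 18.3 bp, SD), and the interval between the fifth and the sixth site was shorter, at 5045 bp. The distance shared by most summits was 5371 bp, matched by 16 of 20. All 8 whole units of that length held a summit in both pairs, which is again largely fixed by the choice of units.

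Sites of the third stretch differed in height in a similar way in both pairs. The slow libraries held 27 to 46 fragments in pair 1 and 26 to 44 in pair 2, each with a median of 36. The WT background held 4 to 11 and 2 to 10 fragments. The lowest site, from 48412994 to 48413123 in pair 1, had 27 slow fragments in pair 1 and 26 in pair 2, over 10 and 7 WT fragments. The sixth site had 44 in each pair, over 4 and 7 WT fragments. Fragments in the slow libraries were correlated across the 10 sites (Pearson's r 0.87, Spearman's rho 0.78, a description). The WT background was not, at 0.06 and -0.04.

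The pairs differed in fold at several sites of the third stretch, and the WT background differed at those described here. At the sixth site the folds were 17.0 and 10.3, with 44 slow fragments in each pair. At the first site, from 48407563 to 48407775, pair 1 had 46 slow and 4 WT fragments and pair 2 had 36 and 9, and the folds were 17.8 and 6.94. This was the highest pileup, fold and width (213 bp) of pair 1. At the eighth site, from 48444856 to 48445049 in pair 2, pair 2 had 39 slow and 2 WT fragments and pair 1 had 34 and 7, and the folds were 20.4 and 9.02. That peak had the highest fold and the greatest width (194 bp) of pair 2, whose highest pileup was the 44 fragments from 48434110 to 48434273. The site with the highest fold thus differed between the pairs.

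The fourth stretch mixed 2 spacings. It had 11 sites, of which 9 had a peak in both pairs with summits 0 to 7 bp apart (median 2 bp). The second to the fifth site were 3063 to 3068 bp apart, over 3 intervals. From the fifth site on, 6 intervals measured 5333 to 5375 bp, with a mean of 5351 ± 18.4 bp (SD). The first interval was 2299 bp. The distance shared by most summits was 5355 bp, matched by 11 of 20, and in units of that length 6 of 7 held a summit in pair 1 and 7 of 7 in pair 2.

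The 9 shared sites of the fourth stretch were nearly level. They held 36 to 43 slow fragments in pair 1 and 29 to 44 in pair 2, each with a median of 40, over 7 to 13 and 6 to 12 WT fragments. The coefficient of variation over sites was 6.72% and 11.9%, beside 20.2% and 19.5% in the third stretch. Pair 2 over pair 1 had a median ratio of 1.00 in the fourth stretch and 0.955 in the third, both above the ratio of depths of 0.784. Reads may be shared among copies, and at most 1 read per position and strand was kept. The part of either in these level heights and ratios was not tested.

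The other 2 sites of the fourth stretch were weak and called in 1 pair each. The first site, from 50596711 to 50596826, had 5 slow fragments in pair 1 over a background of 0.197 WT fragments and no peak in pair 2. The seventh, with its summit at 50618992, had 8 slow fragments in pair 2 over 1 WT fragment and no peak in pair 1. It lay between the sixth and eighth sites, which are 10700 bp apart and held 40 and 39 fragments in pair 1. At these depths a site listed in 1 pair only is not shown to be absent from the other. No unit lacked a peak in both pairs, but the units came from the summits, so a copy without a peak could not be seen.

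In pair 1 the peak from 50608223 to 50608418 had the highest pileup (43 fragments), fold (11.3) and width (196 bp) of the fourth stretch. In pair 2 the highest pileup was 44 fragments from 50605150 to 50605345, also the widest at 196 bp, and the highest fold was 10.8 from 50608220 to 50608374. Neighbouring sites therefore led in pileup and width, at nearly equal values, and the same site led in fold in both pairs.

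**Figure D4:**
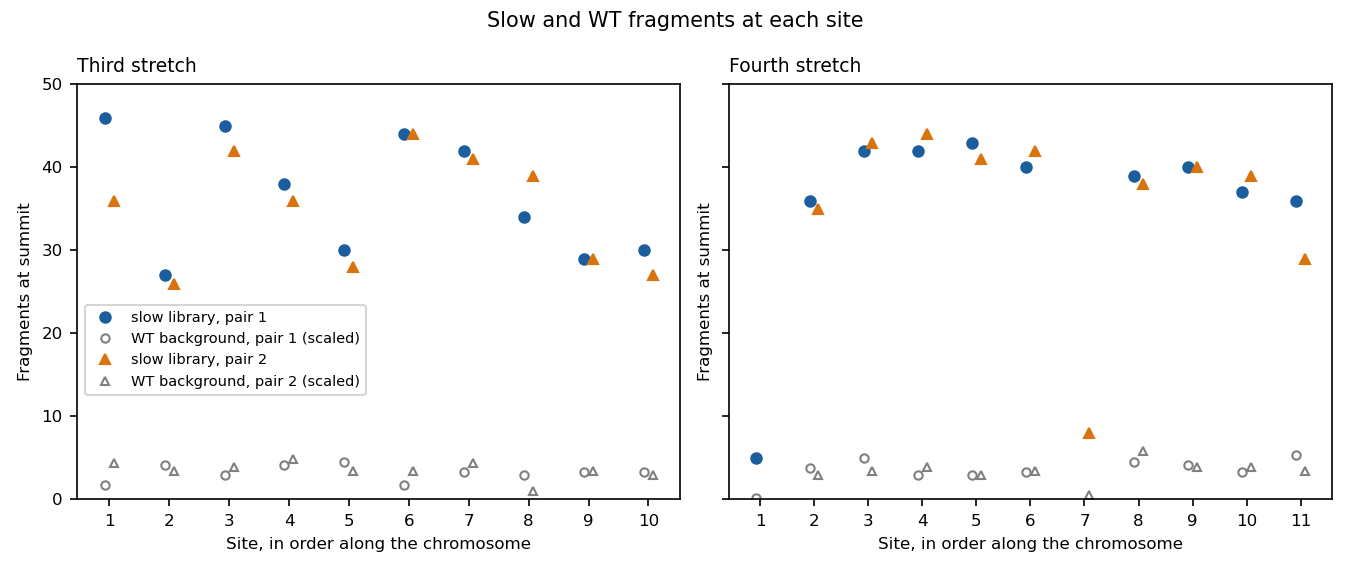
Fragments at the summit of each site of the third and the fourth stretches, in order along the chromosome (horizontal axis), in the slow libraries (filled) and in the scaled WT background (open grey); circles are pair 1 and triangles pair 2. Slow values lie between 26 and 46 at all sites but the first and seventh of the fourth stretch, which were listed in 1 pair each at 5 and 8 fragments.

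The borders of the stretches were clear of other peaks. Chaining the slow-higher peaks of chromosome 19 where they lay no more than 20 kb apart, and keeping chains with at least 10 peaks of 1 list, gave these 4 stretches and no other. The borders in the rule are themselves the outer ends of listed slow-higher peaks. The clear borders and the return of the same stretches are therefore largely fixed by the choice, and nothing is read from them. The nearest slow-higher peak outside any stretch lay 64.5 kb after the second one, in pair 2, with 4 slow fragments and a fold of 4.88. In pair 1 the nearest was 127 kb before the first stretch, with 28 fragments over a scaled WT background of 9.88 and a fold of 2.66. Just inside, the peaks at the ends of the first stretch held 20 and 26 fragments in pair 1 and 9 and 13 in pair 2. The second stretch opened with a peak of 99 fragments in pair 1 and 8 in pair 2, and closed with 6 and 9. The third opened with 46 and 36 and closed with 30 and 27, and the fourth opened with 5 and 35 and closed with 36 and 29.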

How the data were processed

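The submitters' processing notes name TopHat2 and hg19, and the file headers give TopHat2 alignments as the caller's input. Per the file headers, MACS 2.1.1.20160309 called peaks at a q-value limit of 0.01, replicates unpooled. Pileup is the deposited coverage signal at the summit, and the larger library was scaled to the smaller per the file headers. The deposited fold is a ratio with a pseudocount of 1. The deposited p-values and q-values are −log10 values whose column names were lost, identified from the caller's column order. WT background was computed as (pileup + 1)/fold − 1. Redundant rates per the file headers were 92% to 96%. The stretches, members and rules were chosen with earlier results of these data known. Peaks were named by highest pileup, highest fold, greatest width and position at a border. The unit length was the distance from 500 to 8000 bp shared by most summits. A planned refinement by summit phases did not recover planted lengths in simulated data and became an alternative. Position groups lay over 200 bp apart. Intervals are exact (Clopper-Pearson) and cover counting error only. Sequences are not given here. Python 3.11.15, numpy 2.4.6, pandas 2.3.3 and scipy 1.17.1 were used.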

Additional observations from a re-analysis of the deposited data

How the results depend on the processing

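Of 160 alternatives to 48 values, 140 stayed within their spread or interval, 20 moved and 0 reversed. Some of the 140 could not have moved, so these numbers are no measure of robustness. The limit of a median width, pileup or fold was the SD of the 2 pairs, which leaving out 1 pair cannot exceed. The median pileup of the first stretch counted as unmoved at 25 and 46, beside 35.5 in the main setting. WT-higher numbers of 0 cannot change under a stricter limit. Of the shares found in the other pair, 50% reciprocal overlap lowered those of the first stretch to 69.2% and 58.1% and of the second to 62.5% and 35.1%, and summits within 100 bp lowered pair 2 to 69.4% and 52.6%. With a −log10 q of at least 5, pair 2 of the fourth stretch rose to 100%, as its weak site dropped out. The median pileup of the fourth stretch was then 39.75, and 40 over shared peaks. The unit length with summits within 60 bp was 2490.5 bp in the first and 2511.5 bp in the second stretch. Within 15 bp it was 2514 bp in the second and 5362.5 bp in the third. In the fourth it changed to 3066 bp, its other spacing. With phase refinement the lengths were 2565, 2491, 5318 and 5326 bp. Leaving out 1 pair gave 2524 to 2534, 2529 to 2550, 5369.5 to 5371 and 5355 bp. Peak numbers, unit shares, widths and folds stayed within their limits, which for widths and folds were the wide ones of 2 pairs. No paired analysis was possible because the lists hold 1 library against 1 and no values per library to fit. Depth limits the weak sites of 5 to 9 fragments, and the WT background was under 1 scaled fragment at 28 and 40 peaks of the first and 12 and 37 of the second stretch. The use of tall summits to open units and of a 200 bp gap between positions, and the move of the refinement to an alternative, were chosen after seeing the data.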

Other observations

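Seen from the following tall summit, the positions of the first stretch lay at median distances of 595 and 651 bp (the fourth position, pairs 1 and 2), 1327 and 1341 bp (the third) and 1938 and 1932 bp (the second). Read forwards from the tall summit, those of the second stretch lay at 677.5 and 673, 1337 and 1373, and 1924 and 1861 bp. Read forwards, the third position of the first stretch lay at 1205 and 1191 bp. Whether the units of the 2 stretches share sequence or run in opposite directions was not tested.

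In the fourth stretch the weak first site lay 5365 bp before the third site. The 2 spacings there differed by 2282.5 bp in their medians, beside the 2299 bp from the first to the second site.

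In unit 14 of the first stretch, pair 2 also listed a low summit of 11 fragments at 36794442. Before its first tall summit, the second stretch had 3 summits of 8, 9 and 47 fragments in pair 2, where pair 1 listed 1 peak of 2406 bp with its summit at the tall position.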
